A study of Mus musculus with 16 samples.

Results

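The angiopoietin, Tie and VEGF system was followed through 9 genes, taken by their symbols from a table of 16118 genes in the fetal mouse heart. They are the angiopoietin ligands Angpt1 and Angpt2, the Tie receptors Tek and Tie1, the VEGF ligands Vegfa and Vegfc, and the VEGF receptors Kdr, Flt1 and Flt4. All 9 were present in the table and passed the minimum of a mean of 1 CPM (read counts scaled to library size) over the libraries. RNA from atria and from ventricles of 8 E15.5 embryos gave 16 libraries, in 4 groups of 4. The double knockout (dKO) embryos were Meis1flox/flox; Meis2flox/flox; aMHC tg/wt, and the control embryos were Meis1flox/flox; Meis2flox/flox; aMHC +/+. Both genotypes therefore carried floxed Meis1 and Meis2 alleles, and the dKO embryos alone carried the Cre transgene. Deletion and Cre cannot be told apart in this design. The transgene is driven by the alpha-myosin heavy chain promoter, which is active in heart muscle cells, so endothelial cells are not its target. Meis1 and Meis2 encode TALE homeodomain transcription factors. Each embryo gave 1 ventricular and 1 atrial library, and the replicate numbers used here name embryos only. Per the labels, a dKO and a control embryo were taken from each of 4 litters. The sample titles, however, carry only 3 different numbers. One of them is found in dKO replicate 1 alone, another in dKO replicates 2 and 3 and control replicates 1 and 2, and the other in the remaining 3 embryos. No dKO embryo could therefore be matched to its littermate.

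Angiopoietins and VEGFs are secreted proteins that control the growth and stability of blood vessels and of the endocardium. Angpt1 activates the endothelial receptor Tek (also called Tie2), Angpt2 acts as a context-dependent antagonist or weak agonist of it, and Tie1 is a partner receptor that modulates its signal. VEGF-A acts through Kdr (VEGFR2), whereas Flt1 (VEGFR1) binds it tightly and limits its action. VEGF-C acts mainly on Flt4 (VEGFR3) and is best known for driving the growth of lymphatic vessels. In the mouse heart Angpt1 and Vegfa are made largely outside the endothelium, heart muscle included, whereas Angpt2 and the receptors are largely endothelial.

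Recovered read depth was 7.88 to 14.3 megareads in dKO ventricles and 15.6 to 23.0 megareads in control ventricles, which did not overlap. Depth was 14.3 to 19.3 megareads in dKO atria and 14.8 to 19.4 megareads in control atria. Meis1 was at 22.9 to 30.5 CPM in dKO atria and 37.9 to 43.9 CPM in control atria, and Meis2 at 20.5 to 26.9 CPM in dKO ventricles and 35.4 to 43.6 CPM in control ventricles. Meis2 overlapped between genotypes in atria and Meis1 in ventricles, and the values count whole genes, not the floxed exons. Endothelial markers were present in every group, with 19 of 20 listed pan-endothelial genes in the table. Their mean log2 level was 5.31 to 5.43 in dKO ventricles and 5.32 to 5.44 in control ventricles. In atria it was 5.16 to 5.21 in dKO and 4.95 to 5.02 in control libraries, with no overlap. Heart muscle markers were abundant throughout, with a summed level of 22420 to 25580 CPM in dKO ventricles and 21690 to 25940 CPM in control ventricles, and of 21620 to 24260 CPM in dKO atria and 25190 to 29020 CPM in control atria.

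Between dKO and control ventricles 1 of the 9 genes was called, the fall of Angpt1, against 2.0% of the 13950 genes tested (limma, adjusted p under 0.05). Between dKO and control atria 1 of 9 was called, the fall of Kdr, against 7.47% of all genes tested. Library values did not overlap between genotypes for 1 of 9 genes in ventricles (Angpt1) against 8.11% of all genes, and for 2 of 9 in atria (Kdr and Vegfc) against 14.1%. The median log2 difference of the 9 genes was -0.05 in ventricles and -0.01 in atria, beside -0.02 in ventricles and -0.005 in atria over all genes tested. The median of the 9 thus lay close to that of all genes, and the calls fell on single ligands and 1 receptor. The deletion effect differed between chambers for 1 of 9 genes, Vegfc, against 2.64% of all genes. All differences below are on the log2(CPM + 1) scale, which understates changes of low genes such as Angpt2.

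**Figure D1:**
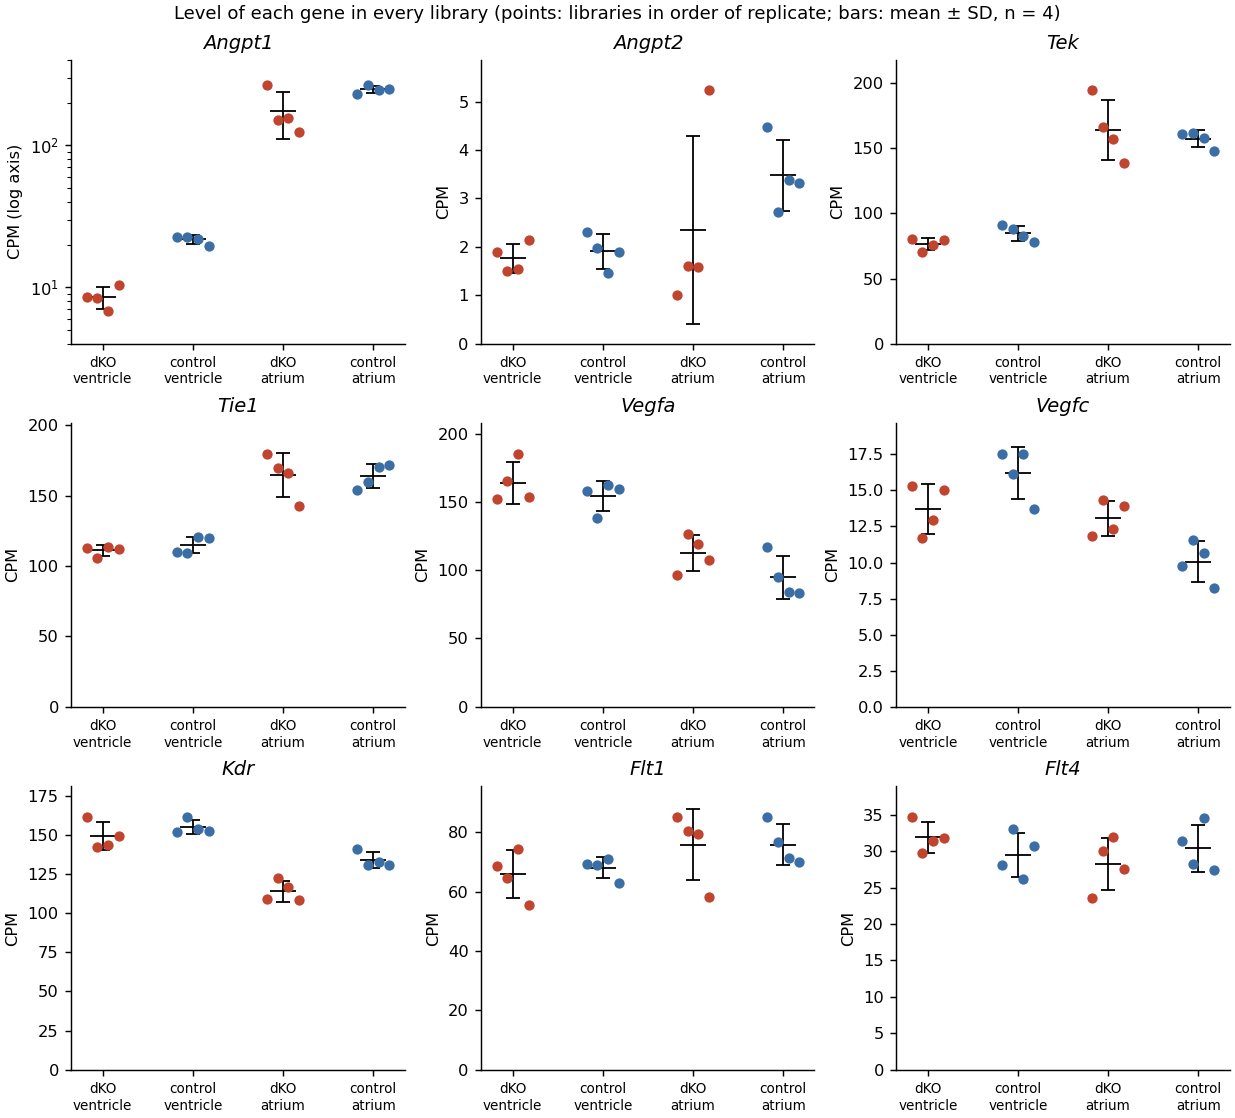
Level in CPM of the 9 genes in each of the 16 libraries, with dKO libraries in red and control libraries in blue, points in order of replicate number and bars for the mean ± SD of 4 libraries. Angpt1 is drawn on a log axis and lies at 6.80 to 10.4 CPM in dKO ventricles and 19.7 to 22.7 CPM in control ventricles.

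Angpt1, the main activating ligand of Tek, fell in ventricles. It is annotated on chromosome 15 from 42424723 to 42676977 (minus strand, GRCm38). Its level in the 4 dKO ventricles was 8.58, 8.37, 6.80 and 10.4 CPM, against 22.7, 22.7, 21.9 and 19.7 CPM in the 4 control ventricles. Every dKO ventricle was thus below every control ventricle, and the dKO mean was 39.3% of the control mean. The log2 difference was -1.26 (SE 0.11, 95% interval -1.51 to -1.01), with an adjusted p of 0.00014 from limma's moderated test over all genes. The gene rested on 80 to 163 reads per dKO ventricle and 430 to 537 reads per control ventricle. The difference was called in all 19 alternative fits and lay between -1.47 and -0.99 in them, and among the 4 embryos of the title number with 2 dKO and 2 control embryos it was -1.47.

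Over all genes tested, 2.0% were called between dKO and control ventricles. Of 9 coronary endothelial markers tested there, 1 was called, Gja5 (0.67, adjusted p of 0.00042, limma). Pan-endothelial, endocardial, epicardial, fibroblast and heart muscle marker lists held no called gene in the ventricular comparison. Of those, endocardial markers summed to 361 to 415 CPM in dKO ventricles and 388 to 436 CPM in control ventricles, and epicardial markers to 156 to 201 CPM in dKO ventricles and 154 to 208 CPM in control ventricles. The atrial muscle gene Sln, chosen after its values were seen, was at 2.55 to 5.41 CPM in dKO ventricles and 1.98 to 4.59 CPM in control ventricles. Those ventricular means were 0.971% of the atrial mean in dKO embryos and 1.32% in control embryos, while Angpt1 was at 4.91% in dKO embryos and 8.75% in control embryos. By the same measure Myl7, another atrial muscle gene chosen after its values were seen, was at 5.44% in dKO embryos and 5.90% in control embryos. These percentages also move with the atrial level, so they do not compare the genotypes. Sln was at 366.1 to 429.5 CPM in dKO atria and 222.5 to 277.7 CPM in control atria. Neither Sln nor Myl7 was called in ventricles (adjusted p of 0.784 and 0.870, limma). The part of atrial RNA in the ventricular Angpt1 values was not tested. In bulk tissue, fewer cells of a type and less RNA per cell cannot be told apart. The exons of Angpt1 share 737 bases with Gm17473, an antisense gene on the other strand with a mean of 1.15 CPM, and the use of strand in counting is not given in the sources used here.

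In atria Angpt1 did not pass the threshold, and 1 dKO embryo stood apart. The 4 dKO atria had 265, 151, 155 and 124 CPM, against 231, 268, 246 and 249 CPM in the control atria. Replicates 2 to 4 of the dKO atria were below every control atrium, whereas replicate 1 was within the control range. The log2 difference was -0.57 (95% interval -0.97 to -0.17), with an adjusted p of 0.087 in limma's test. Without dKO replicate 1, the embryo with a title number of its own, it was -0.79 and passed (adjusted p of 0.000365, limma). Among the 4 embryos of the title number with 2 embryos of each genotype, which leave out dKO replicate 1 too, it was -0.697 (adjusted p of 0.000965, limma). It passed in only 3 of 19 alternative fits, those above and the one with title number as a covariate. In none of them does dKO replicate 1, set apart by these same values, enter the comparison of genotypes. They are therefore not independent support. The SD of Angpt1 over the 4 dKO atria was 62.3 CPM, against 15.4 CPM over the 4 control atria. Whether the deletion effect differed between chambers was tested directly. That difference was -0.69 (95% interval -1.15 to -0.24) and did not pass (adjusted p of 0.108, limma), although it did without dKO replicate 4 (-0.92).

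Angpt2, the other angiopoietin, was the lowest of the 9 genes in every group. It was at 1.89, 1.51, 1.53 and 2.13 CPM in dKO ventricles and at 2.31, 1.97, 1.45 and 1.88 CPM in control ventricles. These groups overlapped, and the log2 difference of -0.07 (95% interval -0.41 to 0.27) was not called. In dKO atria it was at 1.01, 1.60, 1.57 and 5.23 CPM, against 4.48, 2.71, 3.38 and 3.32 CPM in control atria. Replicates 1 to 3 were below every control atrium, and replicate 4 was above them all. The atrial difference was -0.55 (95% interval -1.22 to 0.12, adjusted p of 0.354, limma), and without replicate 4 it was -0.90 (adjusted p of 0.012, limma). It passed in only 1 of 18 alternative fits, the one without replicate 4, a library set apart by these same values. Between 14 and 112 reads stood behind each Angpt2 value, so Angpt2 was measured with the least precision of the 9.

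The ratio of Angpt2 to Angpt1 within a library does not depend on library scaling and shows only unequal change. Its log2 value was -2.27 ± 0.15 in dKO ventricles and -3.53 ± 0.27 in control ventricles (SD, n = 4 each). The groups did not overlap and differed by 1.26. The two-sided exact permutation p was 0.0286, the smallest that 4 against 4 can give, and 0.0686 after adjustment over 12 ratio tests. In atria the ratio was -6.45 ± 1.43 in dKO and -6.18 ± 0.39 in control libraries (SD, n = 4 each), and these overlapped. Of the pair, only Angpt1 was called in ventricles, by the tests above.

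**Figure D2:**
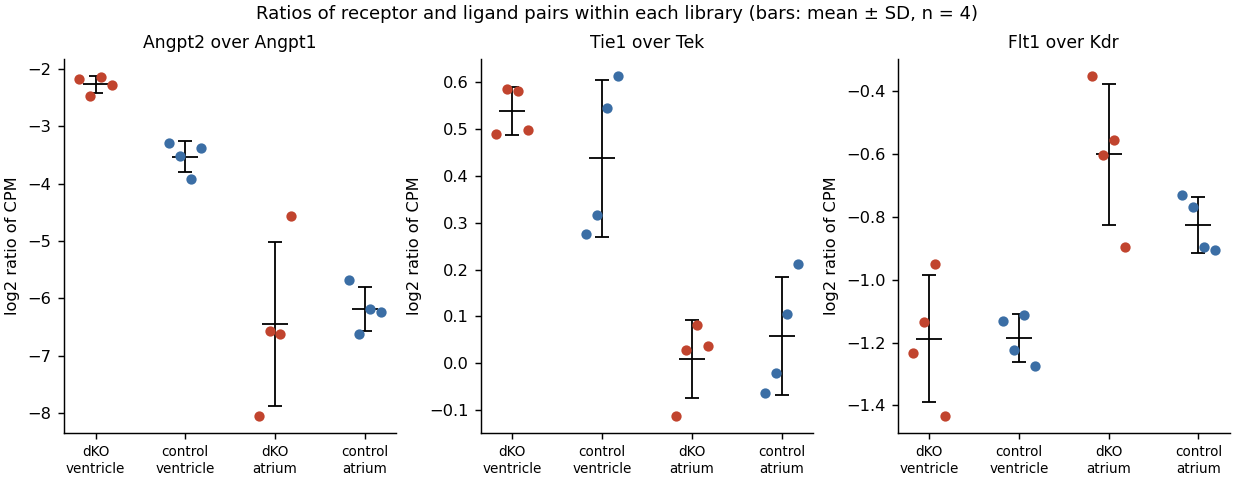
Log2 ratio of CPM of Angpt2 over Angpt1, Tie1 over Tek and Flt1 over Kdr in each library, with dKO in red, control in blue and bars for the mean ± SD of 4 libraries. The Angpt2 over Angpt1 ratio in dKO ventricles averages -2.27 and lies above all control ventricles, which average -3.53.

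Neither Tie receptor was called in the ventricles in which Angpt1 fell. Tek, the receptor of the angiopoietins (chromosome 4, 94739289 to 94874976), was at 80.3, 70.4, 76.1 and 79.3 CPM in dKO ventricles, against 91.0, 87.9, 82.4 and 78.2 CPM in control ventricles. The groups overlapped, and the log2 difference of -0.15 (95% interval -0.28 to -0.02) had an adjusted p of 0.314 in limma's test. Tie1 (chromosome 4, 118471191 to 118490061) was at 113, 106, 114 and 112 CPM in dKO ventricles and at 110, 109, 120 and 120 CPM in control ventricles, a difference of -0.05 (95% interval -0.15 to 0.06). In atria Tek differed by 0.05 (95% interval -0.14 to 0.25) and Tie1 by 0.003 (95% interval -0.16 to 0.16), and neither was called. The intervals of both receptors in both chambers do not reach the size of the Angpt1 difference in ventricles. Tek in dKO atria ran between 139 and 194 CPM and Tie1 between 143 and 180 CPM, in both cases a wider range than in control atria, where they ran from 148 to 162 CPM and from 154 to 172 CPM.

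Promoters were planned for genes called in a dKO comparison, which Tek and Tie1 were not. The proximal promoters of Tek and Tie1 were added because both endothelial receptors differed in the same direction between chambers, though other members differed too. They run from 250 bases before to 50 bases after the start given by RefSeq (GRCm38.p6), for Tek at chr4:94739039-94739338, plus strand, and for Tie1 at chr4:118489800-118490099, minus strand. Of the 9 genes, 7 had a promoter in the set used. Angpt1 and Angpt2 had none, so their promoters were not searched. Both strands were searched for TGACAG, a core recognised by MEIS proteins, for ACGTG, the core of the hypoxia response element, and for GGAA, the core bound by ETS factors. Capitals mark every match on either strand, a match on the other strand being printed as its reverse complement.
Tek: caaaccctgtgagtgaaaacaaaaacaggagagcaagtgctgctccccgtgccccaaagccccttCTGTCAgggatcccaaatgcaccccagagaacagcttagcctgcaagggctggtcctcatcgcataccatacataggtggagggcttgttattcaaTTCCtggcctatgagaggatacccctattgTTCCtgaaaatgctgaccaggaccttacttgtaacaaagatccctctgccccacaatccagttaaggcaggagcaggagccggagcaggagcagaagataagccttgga
Tie1: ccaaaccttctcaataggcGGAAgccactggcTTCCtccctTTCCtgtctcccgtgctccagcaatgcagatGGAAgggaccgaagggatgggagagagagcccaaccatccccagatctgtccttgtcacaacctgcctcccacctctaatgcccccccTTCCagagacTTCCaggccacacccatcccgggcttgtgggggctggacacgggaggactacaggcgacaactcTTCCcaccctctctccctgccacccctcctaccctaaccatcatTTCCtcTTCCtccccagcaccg
The Tek window held 1 TGACAG match, on the minus strand at position -185 from the start, and 2 GGAA matches. The Tie1 window held 9 GGAA matches, with a median of 3 over all 32851 mouse promoters in the table. TGACAG occurred in 19.2% of these promoters, ACGTG in 19.6% and GGAA in 96.0%. These matches describe letters and say nothing on binding.

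Kdr, the main signalling receptor of VEGF-A (chromosome 5, 75932827 to 75978458), fell slightly in atria. It was at 109, 122, 117 and 108 CPM in dKO atria, against 141, 131, 133 and 131 CPM in control atria. The groups did not overlap, and the dKO mean was 85.1% of the control mean. The log2 difference was -0.23 (SE 0.056, 95% interval -0.35 to -0.11), with an adjusted p of 0.028 in limma's test. This call was kept in 10 of 19 alternative fits. It was lost without dKO replicate 1 or 3 and without each of the 4 control replicates (adjusted p of 0.057 to 0.090, limma), while the difference stayed between -0.244 and -0.206. Among the 4 embryos of the same title number it was -0.19 with an adjusted p of 0.122 (limma).

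Endothelial markers that were called in the same atria rose. Counts of marker lists in atria are to be read against the 7.47% of all genes called there. Of 19 pan-endothelial genes tested, 3 rose in dKO atria and none fell: Myct1 (0.55), Cd34 (0.52) and Eng (0.37). Of 9 coronary endothelial genes tested, 4 rose, among them Gja4 (0.48), Aqp1 (0.37) and Efnb2 (0.25). Set against the mean log2 level of the pan-endothelial genes in its own library, Kdr was 1.57 to 1.73 above it in dKO atria and 2.03 to 2.21 above it in control atria. This measure also moves with the pan-endothelial mean, which was higher in dKO atria, and is not particular to Kdr. Tie1, whose own atrial difference was 0.003, was likewise 1.97 to 2.29 above that mean in dKO atria and 2.33 to 2.47 above it in control atria, without overlap, and Angpt1 did not overlap either (1.77 to 2.84 in dKO atria and 2.91 to 3.08 in control atria). Beyond the endothelium, 2 of 10 heart muscle markers fell in dKO atria, Actn2 (-0.36) and Pln (-0.42). Fibroblast (Dcn, 0.47, and Tcf21, 0.44), epicardial (Msln, 0.59, and Tcf21) and macrophage (C1qb, 0.63) lists, of 10 genes each, held called genes that rose. The macrophage count, 1 of 10, lay close to the share of all genes. The part of these marker levels in the fall of Kdr was not tested. In ventricles Kdr was at 142 to 162 CPM in dKO and 152 to 161 CPM in control libraries, a difference of -0.05 (95% interval -0.16 to 0.05). The difference of the Kdr effect between chambers was 0.18 (95% interval 0.03 to 0.33) and did not pass (adjusted p of 0.239, limma).

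Flt1, which binds VEGF-A and limits its action, differed by -0.05 (95% interval -0.23 to 0.12) in ventricles and -0.01 (95% interval -0.25 to 0.23) in atria. It ran from 55.4 to 74.5 CPM in dKO ventricles and from 63.1 to 71.0 CPM in control ventricles, and from 58.2 to 85.3 CPM in dKO atria and 69.97 to 85.2 CPM in control atria. The lowest value of each chamber was that of dKO replicate 4. The log2 ratio of Flt1 to Kdr averaged -0.60 ± 0.22 in dKO atria and -0.82 ± 0.09 in control atria (SD, n = 4 each), with overlap and an exact permutation p of 0.114 (two-sided). Flt4, the receptor of VEGF-C, ran from 29.8 to 34.8 CPM in dKO ventricles and 26.2 to 33.1 CPM in control ventricles, and from 23.6 to 31.9 CPM in dKO atria and 27.4 to 34.6 CPM in control atria. Its differences of 0.11 in ventricles (95% interval -0.06 to 0.28) and -0.10 in atria (95% interval -0.33 to 0.12) were not called. Of the lymphatic markers, 0 of 7 were called in ventricles and 1 of 7, Pdpn, in atria (0.42). The shares of all genes called were 2.0% in ventricles and 7.47% in atria.

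**Figure D3:**
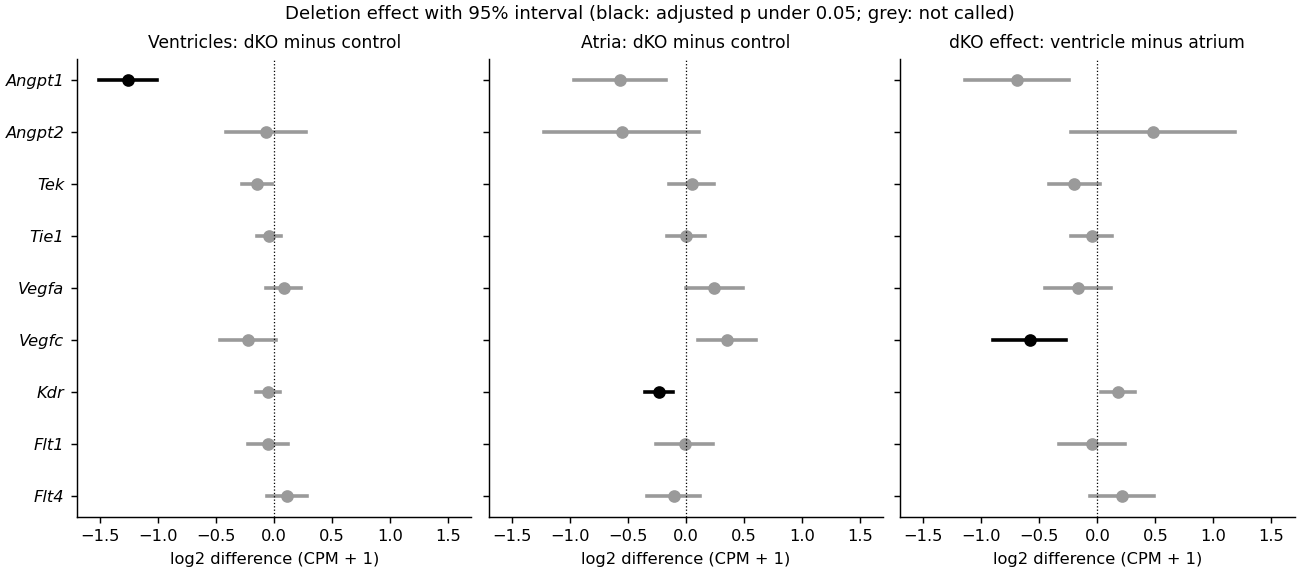
Log2 difference of CPM + 1 with its 95% interval for each gene, for dKO minus control in ventricles, dKO minus control in atria, and the ventricular minus the atrial dKO effect, black where the adjusted p is under 0.05. Angpt1 in ventricles (-1.26) lies farthest from 0, and Kdr in atria (-0.23) and the chamber difference of Vegfc (-0.58) are the other black points.

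Vegfc, the lymphangiogenic ligand (chromosome 8, 54077606 to 54187096), differed in its response between the chambers. In dKO ventricles it was at 15.3, 11.7, 12.9 and 15 CPM, against 17.6, 16.1, 17.5 and 13.7 CPM in control ventricles. In dKO atria it was at 11.8, 14.3, 12.3 and 13.9 CPM, against 9.78, 11.5, 10.7 and 8.22 CPM in control atria. Values were thus higher in every dKO atrium than in every control atrium, and mostly lower in dKO than in control ventricles, with overlap. Neither chamber passed alone, with -0.23 (95% interval -0.47 to 0.01, adjusted p of 0.422, limma) in ventricles and 0.36 (95% interval 0.11 to 0.60, adjusted p of 0.089, limma) in atria. The difference of both effects was -0.58 (SE 0.15, 95% interval -0.90 to -0.27), with an adjusted p of 0.044 in limma's test. It passed in only 4 of 18 alternative fits, with adjusted p of 0.026 to 0.768 over all of them, and missed in both count-based tests (0.068 with edgeR and 0.070 with DESeq2).

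Within single embryos the same pattern was seen as a chamber difference. The ventricle exceeded the atrium in Vegfc by a log2 of 0.34, -0.27, 0.07 and 0.10 in the 4 dKO embryos, and by 0.78, 0.45, 0.67 and 0.67 in the 4 control embryos. These did not overlap, which held for 1 of the 9 genes and for 8.11% of all genes tested. Endothelial and heart muscle marker levels differed between genotypes in atria and overlapped in ventricles, as given above. Their part in the Vegfc result was not tested.

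The promoters of Kdr and Vegfc are shown since both genes were called in a dKO comparison, again from RefSeq (GRCm38.p6), for Kdr at chr5:75978406-75978705, minus strand, and for Vegfc at chr8:54077282-54077581, plus strand. Capitals again mark matches of the 3 motifs on either strand.
Kdr: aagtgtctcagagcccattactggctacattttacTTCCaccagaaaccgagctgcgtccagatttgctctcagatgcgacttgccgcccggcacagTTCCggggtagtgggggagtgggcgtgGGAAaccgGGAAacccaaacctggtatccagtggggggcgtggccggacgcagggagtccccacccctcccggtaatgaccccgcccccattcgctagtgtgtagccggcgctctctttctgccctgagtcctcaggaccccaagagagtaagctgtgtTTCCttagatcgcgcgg
Vegfc: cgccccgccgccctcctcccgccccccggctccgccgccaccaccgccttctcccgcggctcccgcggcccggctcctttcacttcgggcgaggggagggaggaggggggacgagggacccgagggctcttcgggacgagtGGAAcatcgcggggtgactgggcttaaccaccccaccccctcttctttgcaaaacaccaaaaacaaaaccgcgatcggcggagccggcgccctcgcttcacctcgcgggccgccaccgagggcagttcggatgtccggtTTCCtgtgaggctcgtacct
Neither window held TGACAG or ACGTG. GGAA matched 5 times in Kdr and 2 times in Vegfc, whose window had a GC content of 70.3%. Among the 7 matched genes, which do not include Angpt1 or Angpt2, TGACAG was found in Tek alone.

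Vegfa, the main ligand of Kdr and Flt1 and a gene induced by low oxygen, was at 152, 165, 185 and 153 CPM in dKO ventricles, against 158, 138, 162 and 160 CPM in control ventricles. In dKO atria it was at 96.2, 127, 119 and 107 CPM, against 117, 94.8, 84.0 and 83.6 CPM in control atria. Genotypes overlapped in both chambers. The differences were 0.08 (95% interval -0.07 to 0.23) in ventricles and 0.25 (95% interval -0.002 to 0.50, adjusted p of 0.250, limma) in atria. Genes of the hypoxia response and its regulators, 16 in all, had a median difference of -0.13 in ventricles and -0.07 in atria. Their summed level was 3531 to 4020 CPM in dKO ventricles and 4038 to 4166 CPM in control ventricles, without overlap, and 2438 to 2745 CPM in dKO atria and 2576 to 2942 CPM in control atria, with overlap. Their mean log2 level did not overlap in atria, at 6.24 to 6.34 in dKO and 6.39 to 6.52 in control libraries, and overlapped in ventricles. In ventricles 1 of 16 fell, the glucose transporter gene Slc2a1 (-0.57), where 2.0% of all genes were called, against 7.47% in atria. In atria Slc2a1 (-0.71) and Adm, which encodes the vasoactive peptide adrenomedullin (-0.44), fell, and P4ha1, a collagen prolyl hydroxylase gene (0.37), rose, with 13 of 16 not called.

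Among further ligands and partners of the system, all called genes but 1 were called in atria. Over all genes tested, 7.47% were called in atria and 2.0% in ventricles. None of 3 other ligands in the table was called in either chamber. Vegfb, the highest of them, was at 118 ± 3.33 CPM in dKO ventricles and 134 ± 8.40 CPM in control ventricles (SD, n = 4 each; adjusted p of 0.1302, limma). Of 11 coreceptors and modulators tested, 3 rose in dKO atria and none was called in ventricles. The 3 were Pdgfc, a PDGF family ligand (0.70), the integrin subunit gene Itgav (0.40) and Adamts3, a protease that takes part in activating VEGF-C (0.76). Adamts3 averaged 13.4 ± 3.13 CPM in dKO atria and 7.39 ± 1.05 CPM in control atria (SD, n = 4 each). Of 13 genes of receptor signalling, only the adaptor gene Shb was called, with a fall in ventricles (-0.38, adjusted p of 0.006, limma), and none was called in atria. Of 11 tip-cell and VEGF response genes, none was called in either chamber. Medians of the tip-cell list were 0.05 in ventricles and 0.24 in atria, beside -0.02 in ventricles and -0.005 in atria over all genes tested.

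More of the 9 genes were called between the chambers than between the genotypes. Of the 9 genes, 5 were called between ventricle and atrium of dKO embryos, against 49.1% of all genes tested, and 7 between ventricle and atrium of control embryos, against 46.9%. Nearly as many of all genes as not were called between the chambers, so a call is a common outcome here. Angiopoietin and Tie genes lay on the atrial side, and Vegfa, Vegfc and Kdr on the ventricular side. In dKO embryos Angpt1, Tek and Tie1 were lower in ventricles, and Vegfa and Kdr were higher. In control embryos Angpt2 joined the lower and Vegfc the higher group.

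Angpt1 had the largest chamber difference of the 9. Ventricle minus atrium was -4.15 (SE 0.15) in dKO embryos and -3.46 (SE 0.15) in control embryos, and it passed in all 18 alternative fits of each. Tek differed by -1.08 (SE 0.074) in dKO and -0.88 (SE 0.074) in control embryos, and Tie1 by -0.56 (SE 0.059) in dKO and -0.51 (SE 0.059) in control embryos. The ligand and its receptors thus shared a direction, but Angpt1 differed by far more. Vegfa was higher in ventricles by 0.54 (SE 0.095) in dKO and 0.71 (SE 0.095) in control embryos, and Kdr by 0.39 (SE 0.050) in dKO and 0.21 (SE 0.050) in control embryos. Angpt2 in control embryos differed by -0.62 (adjusted p of 0.040, limma) and kept the call in 10 of 17 alternatives, and in dKO embryos by -0.14 (adjusted p of 0.670, limma). Neither Flt4 (0.18 in dKO and -0.04 in control embryos) nor Flt1 (-0.19 in dKO and -0.15 in control embryos) was called in either genotype. The Flt1 result depended on the fit. In dKO embryos it was called lower in ventricles by edgeR and DESeq2 (-0.22 in both), and by limma with embryo as a fixed term (adjusted p of 0.017) or without dKO replicate 4 (adjusted p of 0.010). In control embryos it was called by edgeR and DESeq2 (-0.19 in both) and by limma without dKO replicate 4 (adjusted p of 0.047).

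**Figure D4:**
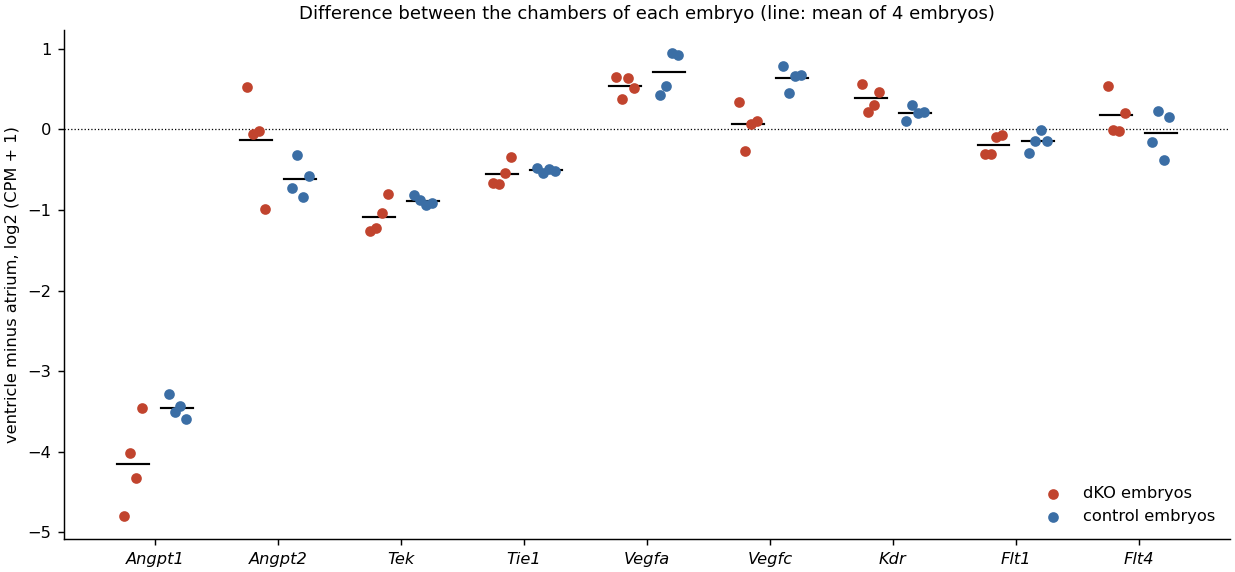
Ventricle minus atrium on the log2(CPM + 1) scale within each embryo for the 9 genes, with dKO embryos in red, control embryos in blue and a line at the mean of 4 embryos. Angpt1 lies between -4.80 and -3.46 in dKO embryos and between -3.60 and -3.29 in control embryos. Of the 9 genes only Vegfc shows no overlap between genotypes, against 8.11% of all genes tested.

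The receptor pairs were shifted within both families. Over the 8 embryos the log2 ratio of Tie1 to Tek was 0.46 higher in the ventricle than in the atrium, and that of Flt1 to Kdr was 0.47 lower. Each went the same way in 8 of 8 embryos, with a two-sided exact sign-flip permutation p of 0.0078, the smallest that 8 embryos can give, and 0.031 after adjustment over 12 tests. Without any 1 of the 8 embryos the shifts were 0.43 to 0.47 for Tie1 over Tek and -0.51 to -0.42 for Flt1 over Kdr. The adjusted p of the sign-flip test was then 0.0625 for both ratios in every case. With fewer embryos the smallest p of this test is larger, and both ratios were at it. These omissions could therefore not have kept the call, and only the sizes of the shifts are informative. The chamber shift of Tie1 over Tek averaged 0.53 ± 0.06 in dKO and 0.38 ± 0.05 in control embryos (SD, n = 4 each). These did not overlap (exact permutation p of 0.0286, adjusted 0.0686).

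Counts of other gene groups between the chambers are to be read against the 49.1% of all genes called in dKO embryos and the 46.9% in control embryos. Of 10 endocardial markers, 8 were lower in ventricles of dKO embryos and none was higher, and in control embryos 7 were lower and 1 was higher. Among them were Vwf (-1.59 in dKO and -1.78 in control embryos), Plvap (-1.76 in dKO and -1.69 in control embryos) and Npr3 (-1.86 in dKO and -1.50 in control embryos). Of 11 tip-cell and VEGF response genes, 9 were higher and 1 was lower in dKO ventricles than atria, and 10 were higher and 1 was lower in control embryos. Apln, a tip-cell ligand gene, was higher by 1.90 in dKO and 2.07 in control embryos, and Igfbp3 by 0.99 in dKO and 1.29 in control embryos. Of 16 hypoxia and Vegfa regulator genes, 7 were higher and 3 lower in dKO ventricles, and 8 higher and 3 lower in control ventricles, with Hif1a itself higher by 0.62 in dKO and 0.63 in control embryos. Medians of the tip-cell list were 0.82 in dKO and 0.95 in control embryos, beside 0.03 over all genes tested in either genotype.

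To compare the genes with each other, levels were divided by annotated exon length (CPM per kb). In dKO ventricles Vegfa was highest at 38.3 ± 3.61, followed by Tie1 at 22.6 ± 0.76, with Kdr at 16.5 ± 0.98 and Tek at 16.2 ± 0.95 overlapping (SD, n = 4). In control ventricles Vegfa was at 36.1 ± 2.58, Tie1 at 23.4 ± 1.199, Tek at 18.0 ± 1.21 and Kdr at 17.1 ± 0.49. Angpt1 lay near the bottom in ventricles, at 1.64 ± 0.28 in dKO and 4.18 ± 0.27 in control libraries, where it overlapped Flt4. In dKO atria Tek (34.9 ± 4.91), Tie1 (33.5 ± 3.22), Angpt1 (33.4 ± 11.98) and Vegfa (26.2 ± 3.10) formed a chain of overlapping levels. In control atria Angpt1 stood above the others at 47.7 ± 2.96, without overlap with Tek at 33.4 ± 1.34 and Tie1 at 33.3 ± 1.72. Flt1, Vegfc and Flt4 lay between 3.43 and 6.62 on average in all 4 groups, and Angpt2 between 0.478 and 0.942. Using the longest transcript in place of all exons put Kdr above Tek without overlap in the ventricles of both genotypes and Angpt1 to the top of dKO atria.

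Over the 16 libraries, the genes most like each member by Pearson r of log2(CPM + 1) were sought among the 13950 genes tested, as a description. The libraries form 4 groups, and how far differences between the groups set each of these r was not tested. Tek was nearest to Adgrg6 (r = 0.998) and to the endocardial marker Npr3 (r = 0.996). Tie1 was nearest to Plvap (r = 0.977) and Steap3 (r = 0.976), and Angpt1 to Kcnh7 (r = 0.983) and Lrrn2 (r = 0.982). Vegfa was nearest to Slc16a3, which encodes a lactate exporter (r = 0.960), and Appl1 (r = 0.948), Kdr to Abcc9 (r = 0.962) and Tns1 (r = 0.959), and Vegfc to Cap1 (r = 0.948) and Thbs1 (r = 0.900). Angpt2 (Ldhd, r = 0.834, and Shtn1, r = 0.831), Flt1 (Rdx, r = 0.883, and Katnal1, r = 0.878) and Flt4 (Kat6b, r = 0.765, and Rgl3, r = 0.751) had no gene as close. Among the members, Angpt1 had r = 0.973 with Tek and 0.950 with Tie1, and -0.913 with Vegfa. With each group's mean removed, Angpt1 had r = 0.791 with Tek, 0.505 with Tie1, -0.518 with Vegfa and -0.586 with Angpt2 (0.419 before). Angpt1 varied most in dKO atria, with an SD of 62.3 CPM, against 15.4 CPM in control atria. The part of the dKO atria in these r was not tested. Both kinds of r are over 16 libraries that share embryos in pairs.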

How the data were processed

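Atrial and ventricular polyadenylated RNA of 4 dKO and 4 control embryos was read as single reads of 60 bases, from 20 ng of total RNA, per the labels' protocols. Trimming used cutadapt and quantification RSEM 1.3.1, with GRCm38, per the submitters' processing notes. The authors' deposited values are CPM. How they were normalized and filtered, the annotation release and strand use were not given in the sources used here. Every deposited CPM value was a whole read number plus 0.5 times 1 step per library, for 100% of values within a tolerance of 0.001, and these recovered reads gave depths and the count tests. A count of 3 reads was listed at 0.128 to 0.364 CPM, and the intervals given cover the spread between embryos.

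Differences were tested with limma 3.58.1 (R 4.3.3) with a mean-variance trend on log2(CPM + 1) over the 13950 genes that averaged 1 CPM or more, two-sided, with Benjamini-Hochberg adjustment. Genotypes were compared within each chamber. Chamber comparisons and the difference of effects used all 16 libraries with embryo as a block, since both chambers came from the same animal (consensus correlation 0.108). Alternatives were other pseudocounts, filters and scaling, a pan-endothelial covariate, title numbers, omission of each embryo, edgeR 4.0.16 and DESeq2 1.42.0. The atrial comparison and the difference of effects were checked on simulated counts, drawn without correlation within embryos. The other comparisons were not simulated. Members and gene lists were chosen with earlier results of these data known. All members were named, and from each other list up to 3 called genes with the smallest adjusted p, or otherwise the gene with the highest level. IDs of 16096 of 16118 genes matched GENCODE M21, which gave exon lengths and GRCm38 coordinates.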

Additional observations from a re-analysis of the deposited data

Results flagged for a closer look

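Angpt2 in dKO atrium replicate 4 was at 5.23 CPM, far above the other dKO atria at 1.01 to 1.60 CPM. Its gap to the nearest of them was 0.859 of the group's range, over Dixon's 95% limit for 4 samples. Of 36 groups examined this was the only one past the limit, and chance gives about 1 in 20. The value rests on 104 reads, against 18 to 39 reads in the other dKO atria.

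The deletion effect on Vegfc differed between ventricles and atria by -0.58 on the log2 scale, by a test of the difference itself (limma, adjusted p of 0.044). The 4 dKO embryos and the 4 control embryos did not overlap in their chamber differences, which also held for 8.11% of all genes tested. These are the same values that the test used. The call was lost in 14 of 18 alternatives.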

How the results depend on the processing

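The fall of Angpt1 in ventricles and its chamber difference in both genotypes were called under every alternative run. Adding the pan-endothelial mean, which separated the genotypes completely in atria and differed between chambers, left 2 called genes in atria, 309 in the control chamber comparison, 2700 in the dKO chamber comparison and 27 in the difference of effects. Calls lost under it therefore show nothing about their source. Of the 9 members it left 0 called in atria (Kdr at -0.046), 1 in the control chamber comparison and 0 in the difference of effects. It also turned the uncalled atrial differences of Angpt2 (0.18), Tek (-0.022), Tie1 (-0.22), Flt1 (0.24) and Flt4 (0.82), the control chamber differences of Kdr (-0.0034) and Flt1 (0.0098), the dKO one of Vegfc (-0.0026) and the difference of effects of Tie1 (0.029). In ventricles the count over all genes was 79 among the 4 embryos of the title number with 2 of each genotype, where Flt1 was 0.0051 and atrial Flt4 0.056, and 469 with DESeq2. Title number as a covariate gave 3 called members in atria, with Angpt1 (-0.81) and Vegfa (0.27) beside Kdr, and turned Tek (-0.054) and Tie1 (-0.044). Replicate numbers do not pair the genotypes, and with them as a replicate block 0 members were called in atria. For the difference of effects 0 members were called with no filter, median-of-ratios scaling, no replicate block for the embryo, embryo as a fixed term, edgeR or DESeq2. Leaving out each embryo gave 0 to 2 called members in atria, 0 to 1 in the difference of effects and 238 to 470 genes in that difference over all genes. It moved across 0 the atrial Tek (-0.032 to 0.13), Tie1 (-0.041 to 0.070), Flt1 (-0.071 to 0.11), ventricular Flt1 (-0.12 to 0.025), chamber differences of Flt4 in control (-0.13 to 0.076), Angpt2 (-0.36 to 0.15) and Vegfc (-0.034 to 0.17) in dKO embryos, the difference of effects of Flt1 (-0.093 to 0.0033), and the atrial ratios Angpt2 over Angpt1 (-0.89 to 0.26) and Tie1 over Tek (-0.090 to 0.0021) and the ventricular Flt1 over Kdr (-0.082 to 0.080). A pseudocount of 1 gave 0.020 for the atrial Angpt2 over Angpt1 ratio. The longest transcript moved 23 of 36 levels per kb. Angpt2 failed the minimum of 5 CPM. Shallow dKO ventricles limit Angpt2 and Angpt1 most.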

Other observations

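Mural cell genes, which belong to the support cells of vessels that angiopoietin signalling is known to recruit, differed between genotypes in atria. Of 12 pericyte and smooth muscle genes, 4 rose and 1 fell in dKO atria, and none was called in ventricles. Over all genes tested, 7.47% were called in atria and 2.0% in ventricles. Cspg4, a pericyte gene, rose by 1.21 on the log2 scale, with 33.2 ± 3.72 CPM in dKO atria, against 13.9 ± 2.33 CPM in control atria (SD, n = 4 each; adjusted p of 0.00011, limma). Acta2, smooth muscle actin, rose by 0.90, with 838 ± 104 CPM in dKO atria, against 446 ± 43.4 CPM in control atria (SD, n = 4 each). Abcc9, a potassium channel subunit gene, fell by 1.11, with 39.1 ± 3.05 CPM in dKO atria, against 85.7 ± 1.67 CPM in control atria (SD, n = 4 each). The difference of effects between ventricle and atrium was called for these 3 genes, at -1.36 for Cspg4, -0.74 for Acta2 and 0.84 for Abcc9. Of the 12 genes 9 were not called in it, and 2.64% of all genes tested were called. The 3 were named for their small adjusted p in atria, and the atrial difference is part of this contrast. Those calls are therefore not separate support. These genes are also expressed in heart muscle or fibroblasts to differing degrees, and the cells behind the changes cannot be told apart in bulk tissue.

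Gja5, an arterial connexin gene that is also expressed in atrial muscle and the conduction system, was the only coronary endothelial marker called in ventricles. It averaged 167 ± 9.04 CPM in dKO ventricles and 105 ± 11.4 CPM in control ventricles (SD, n = 4 each), a rise of 0.67 with an adjusted p of 0.00042 in limma's test. Edn1, the endothelin gene, rose by 0.80, with 20.6 ± 2.56 CPM in dKO atria, against 11.4 ± 1.85 CPM in control atria (SD, n = 4 each).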
